A study of Triticum aestivum with 10 samples.

Results

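Gliadins are the monomeric storage proteins of wheat gluten. They are made in the starchy endosperm, folded in its endoplasmic reticulum and packed into protein bodies, where they hold nitrogen and sulphur for the seedling. They are rich in glutamine and proline, dissolve in aqueous alcohol and give dough its viscosity, and some of their peptides trigger coeliac disease. The alpha-gliadins are encoded at the Gli-2 loci, and the gamma-gliadins at the Gli-1 loci. Both are families of closely related genes, so that an oligonucleotide probe can bind the transcripts of several members.

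The gliadin genes described here were 3 genes named gli-2 (LOC543210, LOC543211 and LOC543212) and the gamma-gliadin gene GAG56D (LOC543214). Their members were all probe sets that the annotation of the Affymetrix wheat array pairs with these gene symbols, which gave 7 probe sets of 4 genes among 61179 probe sets without the Affymetrix controls. LOC543210 and LOC543211 had 1 probe set each, LOC543212 had 2 (with names ending in S1_x_at and S1_at) and LOC543214 had 3 (ending in A1_at, S1_x_at and S1_at), and these endings name the probe sets of a gene below. A probe set whose name ends in _x_at holds probes that can also match other transcripts, and 4 of the 7 are of this kind, so their values were not assigned to 1 gene copy alone.

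Whole grain (endosperm and embryo) of untreated bread wheat, Triticum aestivum cv. Récital, grown in a greenhouse, was collected at 5 stages after pollination, with 2 arrays each at 100, 200, 250, 300 and 500 degree days (DD). Stages 100 to 250 DD lie in the cell division phase, and 300 and 500 DD in the filling phase. The study took its 2 replicates in different harvests, and the replicate number was taken to mark the harvest, which the labels do not name. The labels give slightly different degree days, 130, 185, 230, 290 and 490 DD for replicate 1 and 100, 200, 250, 300 and 500 DD for replicate 2. All values are on the log2 scale after GCRMA, a normalization that corrects each probe for the background binding predicted from its base composition. Values under 4 were treated as background. Depth has no counterpart on an array, and the number of arrays limits the precision. The annotation named 1273 probe sets of 771 genes.

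The array labelled 100 DD replicate 2 stood apart from its label. Over the 24727 probe sets that reached 4 on 2 or more of the other 9 arrays, it correlated at r = 0.628 with 100 DD replicate 1. With replicates 1 and 2 of 500 DD, r was 0.972 and 0.987. The 9 probe sets of embryo proteins (Em, EM, Rab15 and WGA2, which accumulate late in embryo development) spanned 9.96 to 14.71 on this array, against 9.86 to 14.72 on the 500 DD arrays and 1.89 to 2.97 on 100 DD replicate 1. Its gliadin values are therefore given apart, and the fits used the other 9 arrays, with 100 DD replicate 1 as the single array of its stage. That array was assumed to vary like the others. The p-values measure the spread between the arrays of a stage, which were taken to come from separate harvests.

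Of the 7 gliadin probe sets, 6 were near background on 100 DD replicate 1 and among the brightest of the array at every later stage. These 6 lay between 1.98 and 3.37 at 100 DD, and between 12.08 and 15.04 over the 8 arrays of 200 to 500 DD. The seventh, an additional probe set of GAG56D, was at 5.09 or less on every array. This division of 6 against 1 was made after the values were seen.

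LOC543210, a gli-2 gene, had a log2 value of 2.20 on 100 DD replicate 1. On replicates 1 and 2 it was at 14.44 and 14.92 at 200 DD, 15.04 and 14.99 at 250 DD, 15.03 and 14.98 at 300 DD, and 15.03 and 14.82 at 500 DD. All arrays from 200 DD on were thus far above the 100 DD array. Both 200 DD arrays lay below those of 250 and 300 DD and overlapped those of 500 DD. LOC543211, the next gli-2 gene, was at 1.98 on 100 DD replicate 1. It was at 14.26 and 14.61 at 200 DD, 14.56 and 14.68 at 250 DD, 14.66 and 14.71 at 300 DD, and 14.78 and 14.25 at 500 DD. The 2 arrays of 500 DD held both the highest and the lowest of its values from 200 DD on, so that no later stage stood clear of the others.

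LOC543212, the third gli-2 gene, was measured by 2 probe sets that were the most variable of the high ones. LOC543212 S1_x_at was at 2.91 on 100 DD replicate 1, then at 12.84 and 14.50 at 200 DD, 14.22 and 14.47 at 250 DD, 14.32 and 14.69 at 300 DD, and 13.48 and 14.36 at 500 DD. LOC543212 S1_at was at 3.37 on 100 DD replicate 1, then at 12.08 and 13.79 at 200 DD, 13.92 and 14.24 at 250 DD, 14.29 and 14.45 at 300 DD, and 14.13 and 14.22 at 500 DD. On both, 200 DD replicate 1 was the lowest of the 8 later arrays. For S1_at both 200 DD arrays lay below all arrays of 250 to 500 DD, whereas for S1_x_at they overlapped them.

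The gamma-gliadin gene GAG56D (LOC543214) had 2 high probe sets and 1 low one. GAG56D S1_x_at was at 2.96 on 100 DD replicate 1, then at 13.11 and 13.43 at 200 DD, 13.85 and 13.57 at 250 DD, 14.03 and 13.21 at 300 DD, and 13.81 and 13.54 at 500 DD. GAG56D S1_at was at 2.53 on 100 DD replicate 1, then at 13.83 and 14.39 at 200 DD, 14.14 and 14.29 at 250 DD, 14.12 and 14.10 at 300 DD, and 13.54 and 14.14 at 500 DD. Neither showed a stage that stood clear of the other later stages. The low probe set, GAG56D A1_at, was at 2.98 on 100 DD replicate 1, then at 4.16 and 4.67, 4.0 and 5.09, 4.40 and 5.05, and 4.41 and 4.55 at 200, 250, 300 and 500 DD. The annotation gives it the same source record as GAG56D S1_x_at. It ranked between 17243 and 22123 on the later arrays, and it did not show the step of the other 2 probe sets of its gene.

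**Figure D1:**
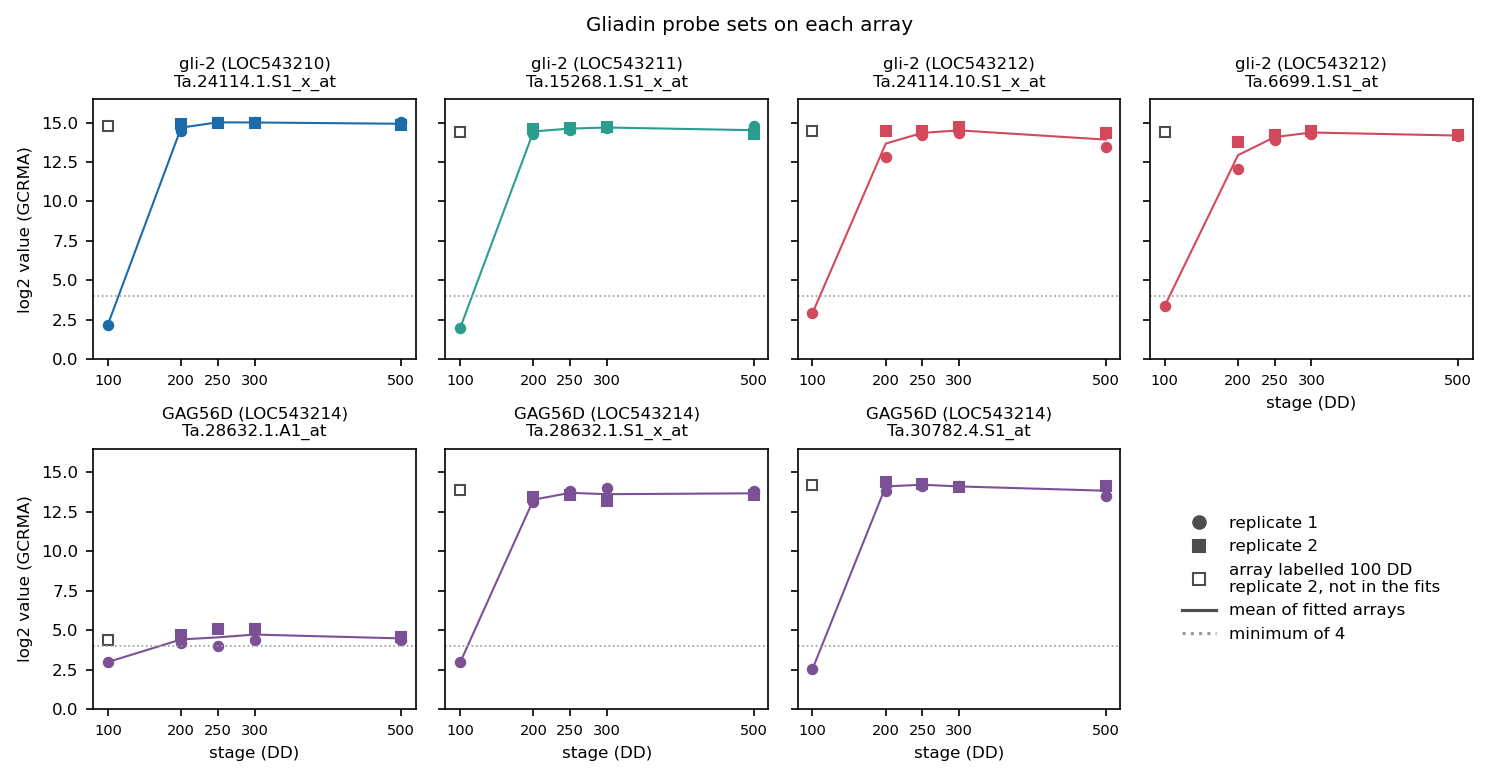
Log2 value (GCRMA, y axis) of each gliadin probe set against stage in degree days (x axis), with circles for replicate 1, squares for replicate 2, an open square for the array labelled 100 DD replicate 2, a line through the means of the fitted arrays and a dotted line at 4. Of the 7 probe sets, 6 lie at 1.98 to 3.37 on 100 DD replicate 1 and at 12.08 to 15.04 from 200 DD on, and GAG56D A1_at at 4.0 to 5.09 from 200 DD on.

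Across the 5 stages, 6 of the 7 gliadin probe sets differed between stages (limma moderated F test, Benjamini-Hochberg adjusted p under 0.05), beside 26.7% of all 24727 probe sets tested. Adjusted p was 1.9e-05 for LOC543210 and for LOC543211, 4.9e-04 and 4.3e-04 for the 2 probe sets of LOC543212 in the order above, and 6.3e-05 and 3.1e-05 for the 2 high probe sets of GAG56D. The low probe set of GAG56D did not pass (limma adjusted p = 0.184). With 100 DD replicate 1 left out, none of the 6 passed over the 4 remaining stages, with limma adjusted p between 0.257 and 0.877. Thus the call over stages rested on the contrast with that 1 array.

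The first question was when the gliadin transcripts appeared. The 100 DD array in the fit, replicate 1, is labelled 130 DD, and the 200 DD arrays are labelled 185 and 200 DD. At 200 DD, 6 of the 7 probe sets were higher than at 100 DD, beside 5.03% of all probe sets tested that were called higher. The median difference was 10.76 log2 units over the 7 gliadin probe sets and -0.05 over all probe sets tested. The filter asks for signal above background on 2 or more arrays, and 100 DD had a single array in the fit. A probe set above background only at 100 DD was therefore never tested. Such falls are missing from the percentage and the median of all probe sets tested, so neither is an even reference for the gliadin rise. LOC543210 averaged 14.68 ± 0.34 at 200 DD (SD, n = 2), against 2.20 on the single 100 DD array, a difference of 12.48 ± 0.29 (SE; limma adjusted p = 5.2e-06). LOC543211 rose by 12.46 ± 0.31 (SE; limma adjusted p = 5.2e-06).

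The gamma-gliadin gene and the third gli-2 gene rose at the same step. GAG56D S1_at rose by 11.59 ± 0.36 (SE; limma adjusted p = 8.8e-06), and GAG56D S1_x_at by 10.32 ± 0.39 (SE; limma adjusted p = 2.6e-05). For LOC543212 the rise was 10.76 ± 0.69 on S1_x_at and 9.56 ± 0.63 on S1_at (SE; limma adjusted p = 3.4e-04 and 3.8e-04). The low probe set of GAG56D differed by 1.43 with a 95% interval of 0.20 to 2.66 (limma adjusted p = 0.141). The sizes of these steps depended on a 100 DD value within background and are not a measured ratio of transcripts. Above the background limit of 4, the 200 DD means of the 6 high probe sets stood higher by 8.94 to 10.68 log2 units.

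The starchy endosperm markers and 1 aleurone probe set were also higher at 200 DD, by unequal amounts. The 5 starchy endosperm probe sets were of AGP-S and GBSS (enzymes of starch synthesis), purothionin THI1.1 and the amylase inhibitor WMAI-1. They spanned 11.59 to 15.13 at 200 DD, against 4.91 to 10.78 on 100 DD replicate 1, where none of them was under 4. All 5 were called higher in limma. The rise was 3.55 for AGP-S, 2.25 for GBSS, 8.06 and 8.38 for THI1.1, and 9.39 for WMAI-1. PER1, an aleurone peroxiredoxin, was at 8.73 and 11.40 at 200 DD, against 2.18 on 100 DD replicate 1 (difference 7.89, limma adjusted p = 0.0051), and its other probe set was under 4 on every array. In grain RNA, fewer cells of a type and less RNA per cell cannot be told apart. All 9 embryo probe sets were under 4 from 100 to 250 DD on the arrays fitted. OEE1, a photosystem protein used as the green pericarp marker, was at 10.62 and 10.85 at 200 DD, against 11.17 on 100 DD replicate 1. The part of tissue make-up in the gliadin step was not tested.

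The 2 arrays of 200 DD differed in the gliadin probe sets. Replicate 1, labelled 185 DD, lay under the mean of the 8 later arrays for 6 of the 6 high probe sets, with a median deviation of -0.46 log2 units, and was the lowest array for 4 of them. The gap was widest for LOC543212, where replicate 2 exceeded replicate 1 by 1.65 on S1_x_at and 1.71 on S1_at. In absolute size, 4.01% and 3.69% of all probe sets tested had a gap at least as large at 200 DD, where the median absolute gap was 0.34. The other 4 high probe sets had gaps of 0.32 to 0.56, and 29.9% to 51.7% of probe sets had an absolute gap at least as large.

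The gap of LOC543212 was smaller at the later stages. It was 0.25 and 0.31 on S1_x_at and S1_at at 250 DD, 0.37 and 0.16 at 300 DD, and 0.88 and 0.08 at 500 DD. The markers differed unevenly between the 2 arrays of 200 DD. One probe set of PER1, the aleurone peroxiredoxin, was at 8.73 on replicate 1 and 11.40 on replicate 2, and the other at 3.52 and 3.76. Of the starchy endosperm list, GBSS was at 11.59 and 12.46 and WMAI-1 at 14.15 and 14.44 on replicates 1 and 2. AGP-S was at 14.37 and 14.29 on these arrays, and the 2 probe sets of THI1.1 at 15.12 and 15.13 and at 14.17 and 14.22. The 36 poly(A) controls, bacterial transcripts added to the RNA, had their lowest means on 200 DD replicate 1 (4.59) and 300 DD replicate 1 (5.45), and means of 7.83 to 10.67 elsewhere. The parts of the labelled age and of labelling in the gap were not tested.

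From 200 to 300 DD no change of the gliadin probe sets was detectable with these arrays. None of the 7 was called in limma at 300 DD against 200 DD, where 1.1% of all probe sets tested were called, and 1 of the 7 had an unadjusted p under 0.05. That probe set was S1_at of LOC543212, which averaged 14.37 ± 0.11 at 300 DD and 12.94 ± 1.21 at 200 DD (SD, n = 2 each), a difference of 1.44 with a 95% interval of 0.20 to 2.67 (limma adjusted p = 0.241). Without 200 DD replicate 2, so that replicate 1 alone stood for 200 DD, its difference was 2.29 and passed (limma adjusted p = 0.0232). Without 200 DD replicate 1 it was 0.58 (limma adjusted p = 0.654).

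The same step was 0.84 for LOC543212 S1_x_at (95% interval -0.51 to 2.18; 0.010 without 200 DD replicate 1 and 1.66 without replicate 2), 0.33 for LOC543210 (-0.24 to 0.89) and 0.25 for LOC543211 (-0.36 to 0.86). For GAG56D it was 0.35 on S1_x_at (-0.42 to 1.12) and -0.0019 on S1_at (-0.71 to 0.70). The low probe set of GAG56D gave 0.31 (-0.70 to 1.32). The upper bounds were 0.70 to 1.12 for LOC543210, LOC543211 and the high probe sets of GAG56D, and 2.18 and 2.67 for LOC543212. The median was 0.33 over the gliadin probe sets and -0.08 over all probe sets tested.

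The stage means show how near each gene was to its later level at 200 DD. LOC543210 averaged 14.68 ± 0.34, 15.02 ± 0.04, 15.01 ± 0.04 and 14.93 ± 0.15 at 200, 250, 300 and 500 DD (SD, n = 2 each). LOC543211 averaged 14.44 ± 0.24, 14.62 ± 0.09, 14.69 ± 0.04 and 14.52 ± 0.37 at these stages. The 250 DD mean of LOC543212 was 14.35 ± 0.18 on S1_x_at and 14.08 ± 0.22 on S1_at, against 200 DD means of 13.67 ± 1.17 and 12.94 ± 1.21. LOC543212 was thus the gene with the largest error at 200 DD, and both its replicates at 250 DD lay within 0.31 of each other. The 2 high probe sets of GAG56D (S1_x_at and S1_at) averaged 13.71 ± 0.20 and 14.22 ± 0.11 at 250 DD, against 13.27 ± 0.23 and 14.11 ± 0.40 at 200 DD.

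At the late stage, 500 DD against 300 DD, no decline of the gliadin probe sets was detectable with these arrays. None of the 7 was called in limma, and none had an unadjusted p under 0.05, beside 12.3% of all probe sets tested that were called. The difference was -0.08 for LOC543210 (95% interval -0.64 to 0.48), -0.17 for LOC543211 (-0.78 to 0.44), and -0.58 and -0.19 for S1_x_at and S1_at of LOC543212 (-1.93 to 0.76 and -1.43 to 1.04). For GAG56D it was 0.05 on S1_x_at (-0.72 to 0.82), -0.27 on S1_at (-0.98 to 0.43) and -0.24 on the low probe set (-1.25 to 0.76). Only GAG56D S1_x_at had a positive difference, and the median was -0.19 for the gliadin probe sets and -0.02 for all. Limma adjusted p lay between 0.567 and 0.941.

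Markers of other tissues changed over the same interval. The embryo probe sets spanned 9.86 to 14.72 at 500 DD, against 1.98 to 7.40 at 300 DD, and OEE1 was at 6.42 and 6.90 at 500 DD, against 8.74 and 9.52 at 300 DD. The starchy endosperm probe sets spanned 11.92 to 15.20 at 500 DD, against 12.72 to 15.33 at 300 DD. Of these 5, only AGP-S was called, at 13.09 and 13.36 at 500 DD, against 14.32 and 14.06 at 300 DD (difference -0.96, limma adjusted p = 0.033). The detected PER1 probe set was at 14.12 and 13.51 at 500 DD, against 13.04 and 12.98 at 300 DD (difference 0.81, limma adjusted p = 0.570). Their part in the gliadin values at 500 DD was not tested.

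**Figure D2:**
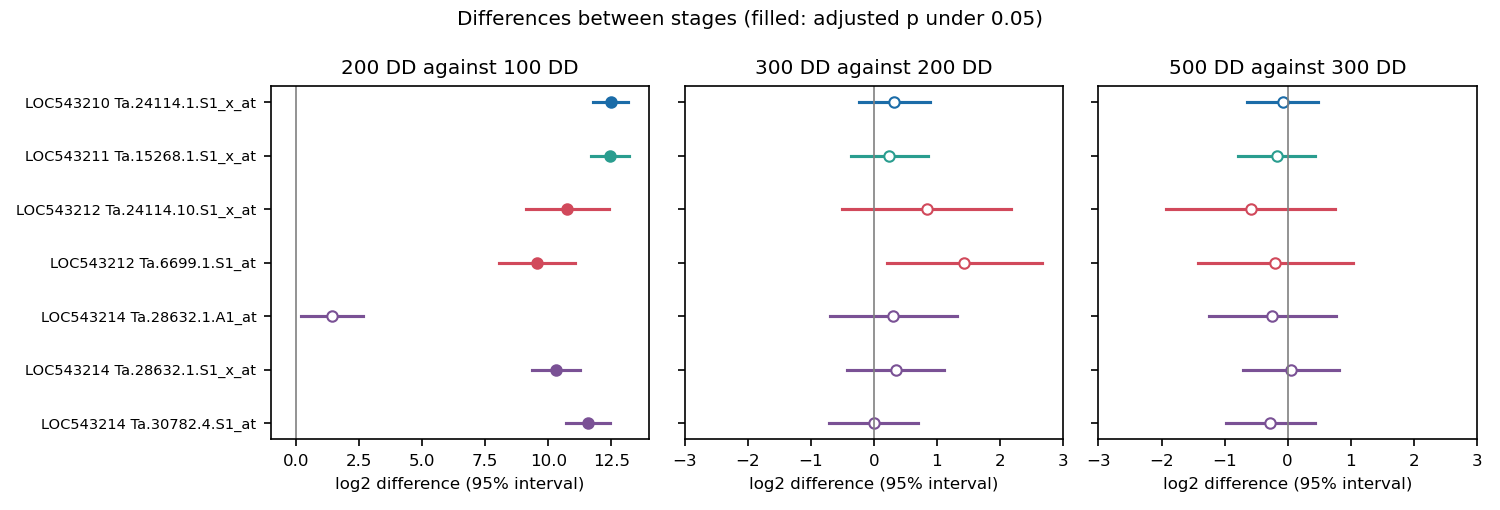
Log2 difference (x axis) of each gliadin probe set (y axis) between successive stages compared, with bars for the 95% interval of the limma fit and filled points where the adjusted p was under 0.05; the x scale of the first panel differs. The step of 200 DD against 100 DD is 9.56 to 12.48 for 6 probe sets, and the intervals of the later steps include 0 for all 7 except the 300 DD against 200 DD step of LOC543212 S1_at, whose adjusted p is 0.241.

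The high gliadin probe sets lay near the top of the range of the array, where a bright spot can saturate. Array maxima were 15.60 to 15.77, and 44 to 92 probe sets per array reached 14. From 200 DD on, LOC543210 ranked between 9 and 21 of 61179 and lay 0.62 to 1.20 below the array maximum. LOC543211 ranked between 21 and 60, at 0.99 to 1.43 below it. LOC543212 ranked between 32 and 267 on S1_x_at and between 50 and 547 on S1_at, at 1.07 to 2.80 and 1.31 to 3.56 below the maximum. GAG56D ranked between 79 and 202 on S1_x_at and between 39 and 141 on S1_at. On 100 DD replicate 1 the same 6 probe sets ranked between 25959 and 59697.

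**Figure D3:**
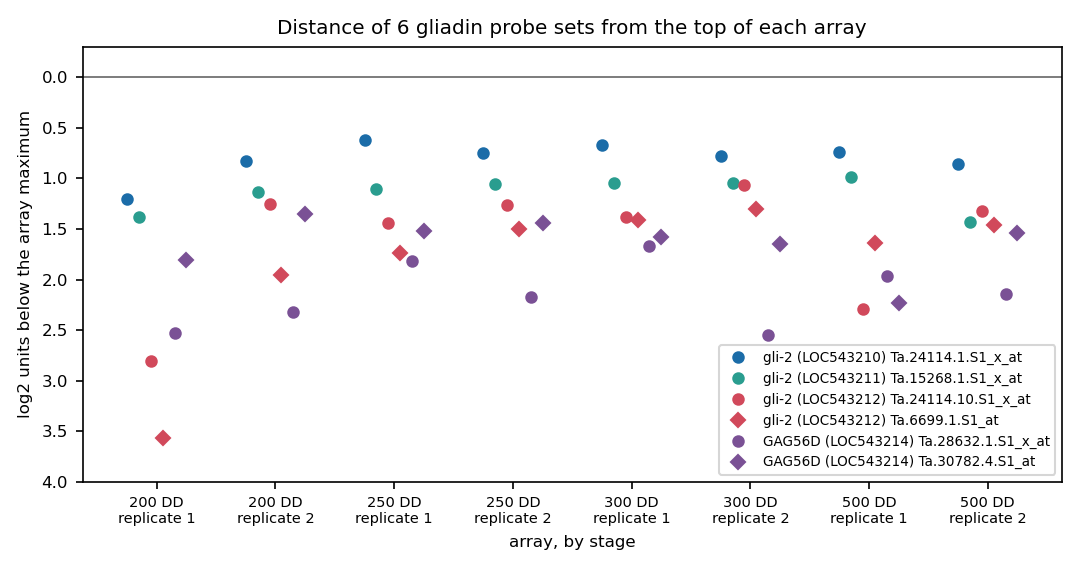
Distance below the array maximum in log2 units (y axis, downwards) of the 6 high gliadin probe sets on each of the 8 arrays of 200 to 500 DD (x axis), with circles and diamonds for the probe sets of a gene. LOC543210 lies 0.62 to 1.20 below the maximum on every array, and LOC543212 reaches 2.80 and 3.56 below it on 200 DD replicate 1.

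The spread over the plateau differed among the members. Over the 8 later arrays the range was 0.53 for LOC543211, 0.60 for LOC543210, 0.86 and 0.92 for the high probe sets of GAG56D, and 1.85 and 2.37 for those of LOC543212. The median range of the 6 was 0.89, against 0.82 for the 191 tested probe sets with a mean of at least 13, which include them, and 1.27 for all probe sets tested. The quartiles of those 191 were 0.59 and 1.27, so the range of LOC543211 lay below the lower quartile and those of LOC543212 above the upper one. Intensities of single probes were not used here, and saturation was not tested.

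The gliadin probe sets did not all vary together across these 8 arrays. Pearson's r between pairs of the 6 was -0.064 to 0.901. LOC543210 and S1_at of LOC543212 had the highest r, 0.901, the 2 probe sets of LOC543212 had 0.818, and the 2 gli-2 genes LOC543210 and LOC543211 had 0.796. The 2 high probe sets of GAG56D had -0.064, the lowest. The points share the arrays and their normalization, and these values are a description.

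Other gluten genes were searched by gene symbol and synonym, from a list of storage protein names, which gave 6 probe sets of 3 genes. A gluten gene whose symbol and synonyms lack these names would be missed. Of the 17 probe sets that share the number of the LOC543210 probe set, 8 carry no gene name. Those with a gene name outside the members and this list are not described here. Of the 5 that were tested, 5 differed over the stages and 5 were higher at 200 DD than at 100 DD. Beside these counts, 26.7% and 5.03% of all probe sets tested were called. None of the 5 was called at 300 DD against 200 DD or at 500 DD against 300 DD. Of all probe sets tested, only 1.1% and 12.3% were called there, so no call among 5 says little. The median difference of these 5 was 9.45, 0.98 and -0.06 log2 units at the steps in turn, beside 10.76, 0.33 and -0.19 for the gliadin probe sets. Low-molecular-weight glutenin (LOC543213), a subunit of the polymeric, elastic fraction of gluten, lay at 11.18 to 13.07 and at 12.08 to 14.18 on its 2 high probe sets from 200 DD on, against 2.30 and 3.45 on 100 DD replicate 1. A further gli-2 gene, LOC543385, was at 10.68 to 12.19 from 200 DD on, against 2.78. An avenin-like protein (LOC780582), a cysteine-rich relative of the gliadins, was at 12.98 to 13.77 and 13.21 to 14.01 on its 2 probe sets, against 3.42 and 3.52.

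The low 200 DD replicate 1 value was shared by part of this list. Replicate 2 exceeded replicate 1 at 200 DD by 1.15 and 1.55 on the 2 high probe sets of low-molecular-weight glutenin. It did so by 0.93 for LOC543385, and by 0.32 and 0.38 for the avenin-like protein. On the high probe sets of the first 2 genes, 200 DD replicate 1 was the lowest of the later arrays, as it was for LOC543212. One probe set of the glutenin gene, ending in A1_at, was under 4 on every array (2.68 to 3.19 from 200 DD on). It is a second case in which a probe set with the ending A1_at stayed low while the others of its gene were high. The LOC543385 probe set, whose name ends in A1_x_at, was high, at 10.68 to 12.19 from 200 DD on.

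**Figure D4:**
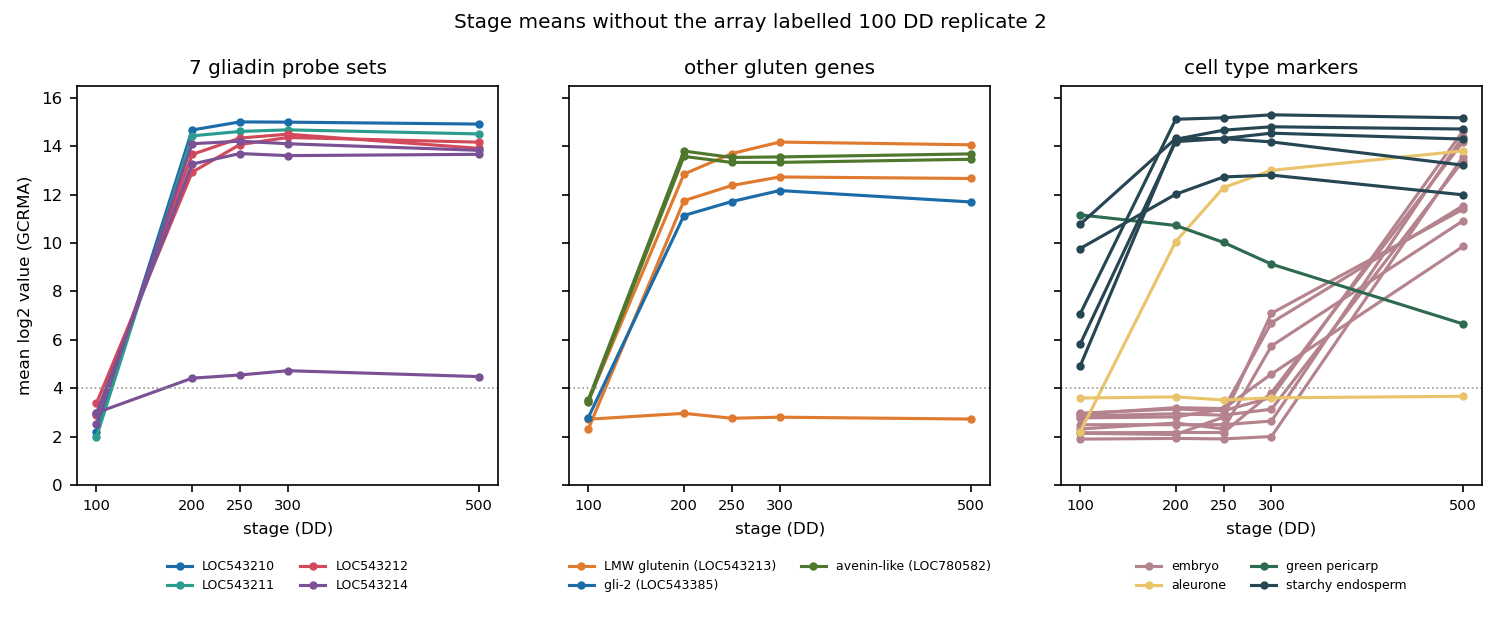
Mean log2 value (y axis) at each stage (degree days, x axis) of the gliadin probe sets, the other gluten genes and the cell type markers, without the array labelled 100 DD replicate 2, with a dotted line at 4. Apart from the 2 low ones, the gluten probe sets are at 10.68 or more on every array from 200 DD on, whereas all 9 embryo probe sets stay under 4 through 250 DD and OEE1 is lower at each later stage.

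The genes most like the mean gliadin profile were found by Pearson's r among 886 other named probe sets. Over the 9 arrays the 6 highest were LOC543098 (r = 0.9998), LOC542894 (0.9992), ATI (LOC543286, 0.9991), LOC542851 (0.9991), thionin THI1.3 (LOC543413, 0.9989) and the amylase inhibitor WMAI-1 (LOC542981, 0.9989). These values turned on the single low 100 DD array. Over the 8 arrays of 200 to 500 DD the 6 highest were LOC543105 (0.9759), LOC100037533 (0.9752), LOC543265 (0.9735), LOC542918 (0.9734), LOC543098 (0.9689) and LOC100037634 (0.9665). LOC543098 was in both lists.

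In the RefSeq annotation of the cultivar Chinese Spring, LOC543210 and LOC543212 lie on the same chromosome with 8 annotated genes between them. LOC543214 has 1 annotated gene between it and another gliadin gene, LOC543384, and LOC543211 is on an unplaced sequence.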

How the data were processed

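Total RNA of 10 grain samples was labelled with biotin and hybridised to 10 Affymetrix wheat arrays. The log2 values deposited by the authors came from GCRMA normalization (no version stated), which shrinks differences near background. All 10 columns were used, and no 2 columns were identical. Each array's sample and stage came from its labels. The 111 Affymetrix controls were left out, and tests covered those reaching 4 (log2) on 2 or more arrays (24727 of 61179, all 7 gliadin probe sets included). A mean per stage was fitted with limma 3.58.1 in R 4.3.3 on 9 arrays, without the array labelled 100 DD replicate 2, and contrasts were adjusted by Benjamini-Hochberg over all probe sets tested (threshold 0.05). The filter left out any probe set above background only on 100 DD replicate 1. The percentages called over the stages and at 200 DD against 100 DD therefore lack such falls. The fit was tested on simulated data holding 200 known changes. Intervals are 95% intervals of the limma fit. The text names every gliadin probe set and, by Pearson's r, the 6 most similar named genes. Gene names came from the platform annotation, and 1272 of 1273 named probe sets matched the RefSeq table (IWGSC CS RefSeq v2.1). Members, lists and tests were chosen with earlier results of these data known. Replicate numbers were taken to mark the harvest, from the degree days in the labels and in the study's methods. Deviations of replicate 1 from the stage means correlated at 0.249 to 0.718 in all 6 pairs of the stages with 2 arrays. This correlation alone cannot identify the harvest. Alternatives covered the arrays, filter, normalization, prior, block, adjustment and each array left out. No sequences were used here.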

Additional observations from a re-analysis of the deposited data

Results flagged for a closer look

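The array labelled 100 DD replicate 2, left out of the comparisons of the report, held gliadin signal far above the level of the other 100 DD array. LOC543210 was at 14.80 and LOC543211 at 14.42, against 2.20 and 1.98 on 100 DD replicate 1. LOC543212 was at 14.49 and 14.37 on S1_x_at and S1_at. GAG56D was at 13.85 on S1_x_at, at 14.19 on S1_at and at 4.38 on A1_at. Relative to the 500 DD means, the 7 values differed by -0.12 to 0.56.

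Some steps had opposite signs in the 2 replicates, taken as the 2 harvests, and the difference between them was not tested. From 300 to 500 DD, LOC543211 differed by 0.12 in replicate 1 and -0.46 in replicate 2, and GAG56D A1_at by 0.0052 and -0.49. On GAG56D S1_x_at, 300 DD minus 200 DD was 0.92 in replicate 1 and -0.22 in replicate 2, and 500 DD minus 300 DD was -0.22 and 0.33. GAG56D S1_at gave 0.28 and -0.29 for 300 DD minus 200 DD, and -0.58 and 0.037 for 500 DD minus 300 DD.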

How the results depend on the processing

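The rise of the 6 high gliadin probe sets at 200 DD kept its direction in every alternative that could compute it, and passed in all of them except 2 settings. With all 10 arrays, none of the 6 was called (differences of 4.06 to 6.24, limma adjusted p 0.585 to 0.677 at 200 DD against 100 DD, and 0.690 to 0.725 over the stages). With Bonferroni adjustment, LOC543212 S1_at lost its call at 200 DD against 100 DD (limma adjusted p = 0.0559) and, like LOC543212 S1_x_at, over the stages (0.155 and 0.192). Over the stages the probe sets called numbered 6610, against 107 with all 10 arrays and 227 with Bonferroni. At 200 DD against 100 DD they numbered 2461, against 67 and 140. At 300 DD against 200 DD they numbered 271, against 3 and 9, 53 with no filter on low values, and 0 with the methods' test (2133 at an unadjusted p under 0.05). At 500 DD against 300 DD they numbered 3040, against 45 and 115, and 1 with the methods' test (4620 at an unadjusted p under 0.05), which called no gliadin probe set at either later step. Leaving out 1 array gave 3549 to 6046 over the stages, 1068 to 2068 at 200 DD against 100 DD, 6 to 656 at 300 DD against 200 DD (6 without 200 DD replicate 1, 656 without replicate 2) and 1099 to 3091 at 500 DD against 300 DD. The cause was not tested. No later step was called in a gliadin probe set, apart from the LOC543212 S1_at step of 300 DD against 200 DD without 200 DD replicate 2, and signs near 0 turned. At 500 DD against 300 DD, LOC543210 gave 0.036 with quantile normalization. Leaving out 1 array gave, at the same step, -0.18 to 0.024 for LOC543210, -0.43 to 0.095 for LOC543211, -1.02 to -0.15 for LOC543212 S1_x_at, -0.28 to -0.11 for LOC543212 S1_at, -0.57 to 0.031 for GAG56D S1_at, -0.35 to 0.46 for GAG56D S1_x_at and -0.57 to 0.079 for GAG56D A1_at. At 300 DD against 200 DD it gave 0.086 to 0.56 for LOC543210, 0.076 to 0.42 for LOC543211, 0.010 to 1.66 for LOC543212 S1_x_at and 0.58 to 2.29 for LOC543212 S1_at, each lowest without 200 DD replicate 1 and highest without 200 DD replicate 2, and -0.28 to 0.28 for GAG56D S1_at, -0.058 to 0.76 for GAG56D S1_x_at and -0.013 to 0.63 for GAG56D A1_at.

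With the replicate number as a block (harvest pairing), 828 probe sets were called at 300 DD against 200 DD, and 7757, 2766 and 4107 over the stages, at 200 DD against 100 DD and at 500 DD against 300 DD. The replicate block changed no call of a gliadin probe set.

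With 2 arrays a stage and 1 at 100 DD, the 95% intervals of the later steps reached 2.67 log2 units, GCRMA shrinks differences near background, and compression near the array maximum was not tested.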

Other observations

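Probe sets that share the number of a gliadin probe set but carry no gene name in the annotation numbered 11, of which 10 were tested. Of these, 9 differed over the stages and 8 were higher at 200 DD than at 100 DD (limma adjusted p under 0.05). Beside these counts, 26.7% and 5.03% of all probe sets tested were called. None of the 10 was called at 300 DD against 200 DD or at 500 DD against 300 DD. There, 1.1% and 12.3% of all probe sets tested were called, so no call among 10 says little. One of those that share the number of the LOC543210 probe set stood apart, with a value of 13.05 on 100 DD replicate 1 and 12.43 to 13.22 on the other arrays, the array labelled 100 DD replicate 2 included. A shared number gives no gene name, and this probe set was picked out after its values were seen.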
